A study of Zea mays with 96 samples.

Results

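The 189 genes described here are maize genes whose identifiers are numbered close to *naked endosperm2* (*nkd2*, Zm00001d026113). They run from Zm00001d025913 to Zm00001d026313, 200 numbers on each side of *nkd2*, with *nkd2* itself and *r1* (Zm00001d026147), an anthocyanin regulator, left out. The deposited tables hold 329 identifiers in that span among 46430 in all, and 189 of these, the members, reached at least 50 counts in 4 or more of the 96 libraries, 95 numbered below *nkd2* and 94 above it. The other 140 did not reach that limit. The members nearest the limit were Zm00001d025947 and Zm00001d026078, whose 4th-highest count was 50, and the nearest genes left out were Zm00001d025993 at 48 and Zm00001d026053 at 44.

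RNA of immature endosperm was sequenced from 8 homozygous genotypes of the W22 inbred, harvested 8, 12, or 16 d after pollination (DAP), with 4 libraries for each genotype and timepoint. Of the genotypes, 4 carried a wild-type *nkd2* allele (WT, *nkd1*, *o2*, and *nkd1 o2*) and 4 carried nkd2-null (*nkd2*, *nkd1 nkd2*, *nkd2 o2*, and *nkd1 nkd2 o2*), the *nkd1* mutants having nkd1-Ds, a transposon insertion, and the *o2* mutants the *o2* allele. All lines descended from selfed plants heterozygous at the 3 loci, and the labels give the ears as coming from selfed plants grown in the field. For each library 3 endosperms of 1 ear were pooled, and the 4 ears were independent, so that the P-values below measure the spread between ears. Every nkd2-null library thus traced its *nkd2* allele to the same parental stock, and every other library carried a wild-type *nkd2* allele. Apart from 4 names given in the study's own material, the members are known here by identifier, and their positions and sequences were not used.

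*nkd1* and *nkd2* are duplicate genes for INDETERMINATE DOMAIN transcription factors (TFs) that act in aleurone and starchy endosperm, and *o2* encodes a basic leucine zipper TF that activates zein storage protein genes. Identifiers of maize genes are numbered mostly in order along a chromosome, so that genes of nearby numbers are mostly physical neighbors. Genes close to a selected locus are inherited together with it, and when a mutant allele is bred into an inbred line, alleles of neighboring genes from its original stock can remain beside it. The design offers 4 matched comparisons of the *nkd2* alleles that share no library: *nkd2* with WT, *nkd1 nkd2* with *nkd1*, *nkd2 o2* with *o2*, and *nkd1 nkd2 o2* with *nkd1 o2*. The question was which members followed the *nkd2* allele in all 4.

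The libraries held between 31327665 and 68052826 reads on genes, with a median of 50009154, and no library duplicated another. Transcript levels are given as CPM, the counts of a gene scaled to the depth of its library. Genes of starch synthesis were used to check the tissue. In every library *sh2*, an ADP-glucose pyrophosphorylase subunit, was at 469 CPM or more and *ae1*, a starch branching enzyme, at 880 CPM or more. Other genes of the pathway were lower in some libraries of 8 DAP, where *sh1* fell to 119 CPM and *bt2* to 12.7 CPM. Levels of embryo and pericarp markers are not given here, so the purity of the tissue was not shown. *wx1*, the granule-bound starch synthase, had medians of 3.53 CPM at 8 DAP, where its lowest library had 0.0777 CPM, and 136 CPM at 16 DAP. For *mn1*, the cell wall invertase of the basal transfer layer, the medians were 174 and 12.5 CPM. *c1*, an aleurone pigment regulator, was at 0.936 CPM or less, while *vp1*, a seed maturation TF, ranged from 0.867 to 18.2 CPM. *nkd2* itself matched the labels: it ranged from 6.19 to 137 CPM over the 48 wild-type-allele libraries and from 0 to 1.08 CPM over the 48 mutant ones. Its levels did not overlap between the alleles at any timepoint. The mean of the 4 matched log2FC values of *nkd2* was -7.07 ± 0.17 (SE) at 8 DAP, -7.23 ± 0.17 at 12 DAP, and -6.65 ± 0.16 at 16 DAP. Reads of W22 plants were aligned to the B73 genome, and so a difference in the amount of transcript and a difference in how the reads of an allele map to B73 cannot be told apart here. Fewer cells of a type and less RNA per cell cannot be told apart in such bulk tissue either.

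A member was said to follow the allele at a timepoint when it was a differentially expressed gene (DEG) in the same direction in all 4 matched comparisons, with an adjusted P-value below 0.05 and an absolute log2FC above 1 in each. Of the 189 members, 18 did so at 1 timepoint or more (9.52%), against 0.179% of all 26778 genes tested. Here and below, all genes tested include the members, and also genes short of the members' count limit, which 21995 genes of the series met. With the mutant allele 10 of them were higher, against 0.12% of all genes, and 8 lower, against 0.0598%. At 8 DAP, 7 of 185 members tested followed the allele (3.78%), against 0.0864% of all 25467 genes tested, with 4 higher (0.051% of all genes) and 3 lower (0.0353%). The counts were 13 of 186 (6.99%) at 12 DAP, against 0.131% of 24504 genes, with 6 higher (0.0816%) and 7 lower (0.049%). At 16 DAP they were 11 of 185 (5.95%), against 0.116% of 24239 genes, with 8 higher (0.0908%) and 3 lower (0.0248%). Of the 181 members tested at every timepoint, 4 did so at all 3, against 0.0569% of all genes. Of the 18, 13 reached the count limit in libraries of both alleles, and the other 5 reached it mainly or only with 1 allele, as given for each below. Over the 189 members, 170 reached it in both, 9 only in mutant and 3 only in wild-type libraries, and 7 only over both.

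Without the limit on log2FC, 30 members differed one way in all 4 comparisons of a timepoint, against 0.732% of all genes. They were 20 at 8 DAP, 18 at 12 DAP, and 20 at 16 DAP, against 0.181%, 0.604%, and 0.223% of all genes. Of the 30, 12 did so at all 3 timepoints, against 0.0919% of all genes. The levels of the 16 mutant and the 16 wild-type libraries did not overlap for 19 members at 8 DAP, 14 at 12 DAP, and 11 at 16 DAP, against 0.122%, 0.11%, and 0.0866% of all genes. Most members did not follow the allele. Members past both limits in none of the 4 comparisons were 131 of 185 at 8 DAP, 121 of 186 at 12 DAP, and 100 of 185 at 16 DAP. The shares over all genes were larger, at 85.5%, 82.8%, and 76.4%.

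The members that followed lay in 2 stretches of numbers, whose ends were set after their values were seen and which are therefore only described. The lower stretch ran from 44 numbers below *nkd2* to 43 above it and held 35 members, of which 13 followed at any size and 9 past both limits. The upper stretch ran from 148 to 200 numbers above *nkd2* and held 36 members, of which 17 followed at any size and 9 past both limits. The ends were placed at the outermost members that followed at any size. By that placing, none of the 40 members numbered between the stretches, and none of the 78 numbered below both, followed at any timepoint. The median absolute mean log2FC was 0.54, 0.83, and 0.63 at 8, 12, and 16 DAP in the lower stretch and 0.53, 0.60, and 0.65 in the upper one. Between the stretches it was 0.20, 0.15, and 0.16, and over all genes tested 0.12, 0.19, and 0.20. The upper stretch reached the last number of the span, and beyond it 2 genes numbered 220 and 234 above *nkd2* were lower in all 4 comparisons of 1 timepoint without passing both limits there. Outside the span, no gene up to 1000 numbers from *nkd2* on either side passed both limits in all 4. Across the genome 48 genes did so at 1 timepoint or more, 21 of them within 200 numbers of *nkd2*, these 18 members, *nkd2*, and *r1* among them, and the 27 elsewhere were scattered, with at most 3 in any block of 1000 numbers.

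**Figure D1:**
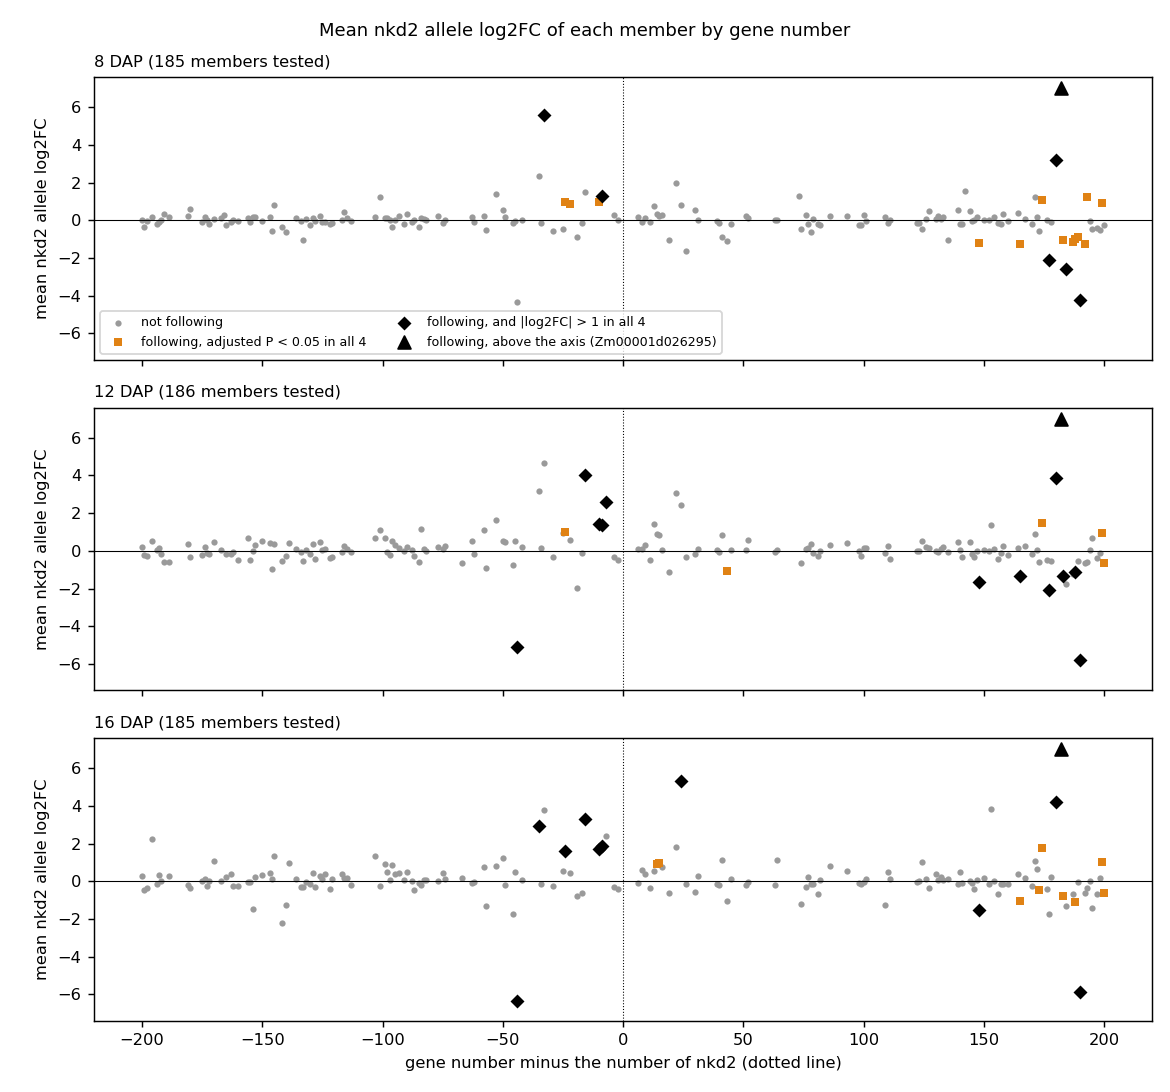
Mean of the 4 matched *nkd2* log2FC values (vertical axis) of each member tested, against its gene number minus that of *nkd2* (horizontal axis), at 8, 12, and 16 DAP. Members that followed the allele sit from 44 below to 43 above *nkd2* and from 148 above it upwards, and Zm00001d026295, at the triangle, lies beyond the axis.

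**Figure D2:**
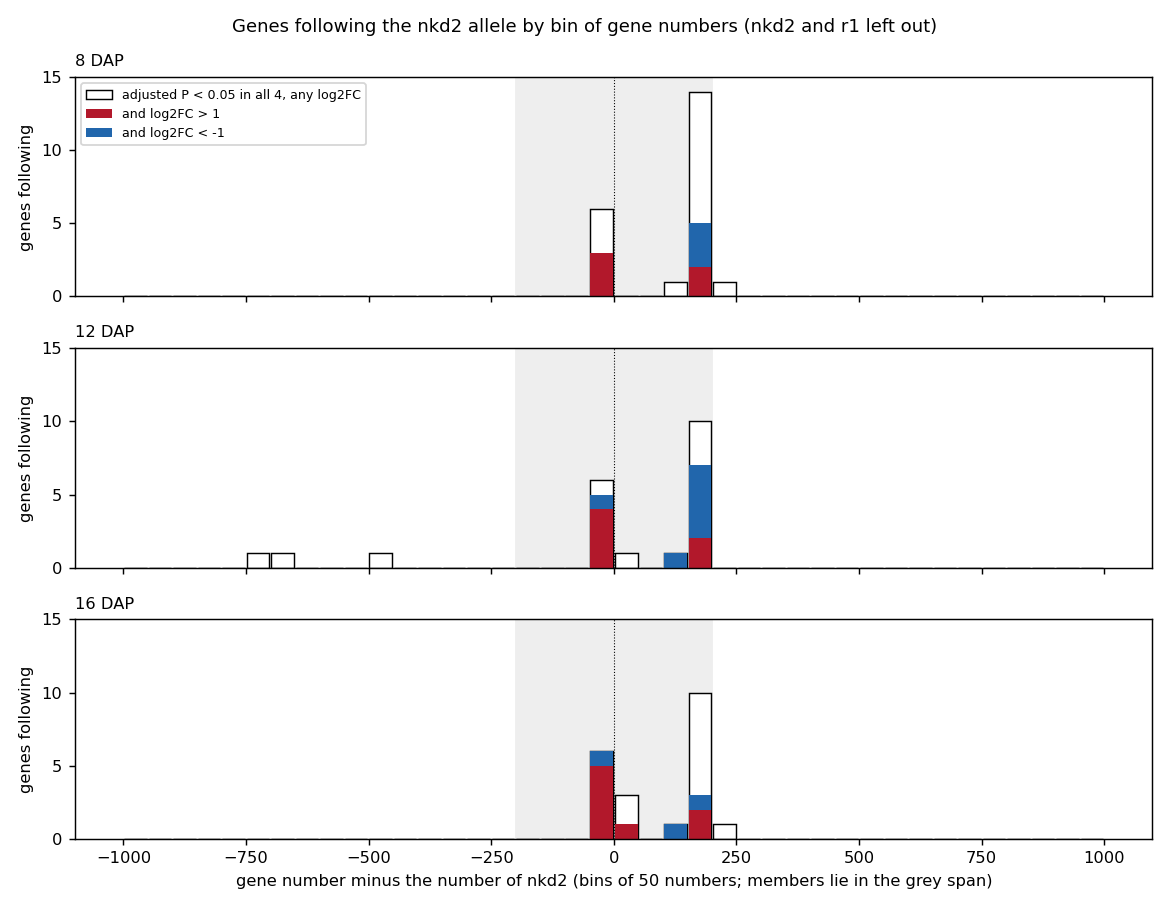
Number of genes in bins of 50 gene numbers that followed the *nkd2* allele in all 4 comparisons, for every gene tested except *nkd2* and *r1*, from 1000 numbers below *nkd2* to 1000 above. Filled bars passed both limits and open bars an adjusted P-value below 0.05 alone, and all filled bars stand in the grey span of 200 numbers on each side.

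The member with the largest fold difference was Zm00001d026295, numbered 182 above *nkd2*. With the wild-type allele, 35 of 48 libraries had no read of it and the highest had 5 counts. With nkd2-null, the 16 libraries of 8 DAP held 4642 to 7700 counts, those of 12 DAP between 6362 and 24832, and those of 16 DAP between 6271 and 20628. The lowest, median, and highest of the 16 mutant libraries were 99.4, 114, and 142 CPM at 8 DAP, 158, 283, and 410 CPM at 12 DAP, and 97.0, 272, and 360 CPM at 16 DAP. The lowest mutant library, at 4642 counts, thus lay far above the highest wild-type-allele library, whatever the *nkd1* and *o2* alleles. Against a floor of 3 counts per library it was at least 1975-fold higher in *nkd2 o2* than in *o2* at 8 DAP, and at least 3693-fold and 2951-fold higher in *nkd2* than in WT at 12 and 16 DAP, 3 comparisons in which the wild-type-allele group had no read. It reached the count limit in the 48 mutant libraries only. The test of unequal effects was not passed (adjusted P = 0.66, 0.38, and 0.70). With at most 5 counts in any wild-type-allele library, it cannot decide whether the effects were equal.

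Its near neighbor Zm00001d026293, 180 above *nkd2*, was also higher at all 3 timepoints. The mutant libraries ranged from 4.41 to 13.4 CPM with a median of 7.92 at 8 DAP, and the wild-type ones from 0.298 to 1.23 CPM with a median of 0.968. At 12 DAP these were 5.31, 7.44, and 9.99 against 0.0503, 0.497, and 1.18 CPM, and at 16 DAP 2.39, 7.37, and 12.4 against 0.132, 0.326, and 0.961 CPM for the lowest, median, and highest. The alleles did not overlap at any timepoint. The mean log2FC was 3.22 ± 0.17, 3.87 ± 0.20, and 4.19 ± 0.23 (adjusted P = 1.7e-14, 6.5e-15, and 1.7e-14), and it differed between timepoints (adjusted P = 0.014). At 8 DAP the effects were unequal (adjusted P = 0.02), with a log2FC of 2.56 in WT and 2.67 in *o2* background against 3.84 in *nkd1* and 3.82 in *nkd1 o2*.

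Zm00001d026104, 9 numbers below *nkd2*, had smaller differences. Its lowest, median, and highest levels were 6.20, 8.52, and 11.2 CPM in mutant against 2.54, 3.45, and 4.87 CPM in wild-type libraries at 8 DAP, 7.38, 9.05, and 13.6 against 2.48, 3.71, and 4.88 CPM at 12 DAP, and 8.78, 10.9, and 16.3 against 1.51, 3.12, and 4.93 CPM at 16 DAP. Every mutant library stood above every wild-type library of its timepoint. The mean log2FC was 1.27 ± 0.07, 1.38 ± 0.08, and 1.85 ± 0.13 (adjusted P = 1.3e-13, 4.8e-13, and 8.9e-12) and differed between timepoints (adjusted P = 0.0022). Between backgrounds it ranged from 1.15 to 1.36 at 8 DAP, from 1.22 to 1.53 at 12 DAP, and from 1.53 to 2.27 at 16 DAP, and the test of unequal effects was not passed (adjusted P = 0.78, 0.54, and 0.30).

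The only member lower past both limits in all 4 comparisons at all 3 timepoints was Zm00001d026303, 190 above *nkd2*. Its lowest, median, and highest levels were 0.0230, 0.444, and 1.72 CPM in mutant against 2.06, 9.73, and 17.6 CPM in wild-type libraries at 8 DAP, and 0.0277, 0.174, and 0.920 against 4.38, 12.7, and 28.8 CPM at 12 DAP. At 16 DAP they were 0, 0.0704, and 4.59 against 1.002, 8.03, and 32.4 CPM. The alleles were apart at 8 and 12 DAP and overlapped at 16 DAP, where 1 library, *nkd1 nkd2 o2* number 4, held 302 counts. The mean log2FC was -4.23 ± 0.31, -5.80 ± 0.37, and -5.85 ± 0.60 (adjusted P = 6.7e-11, 1e-12, and 1.9e-08), and -6.80 at 16 DAP without that library (adjusted P = 2.4e-11). The call of following at 16 DAP was lost without replicate 1 or 2 and when each matched pair was fitted alone. It reached the count limit in 46 wild-type and 3 mutant libraries.

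**Figure D3:**
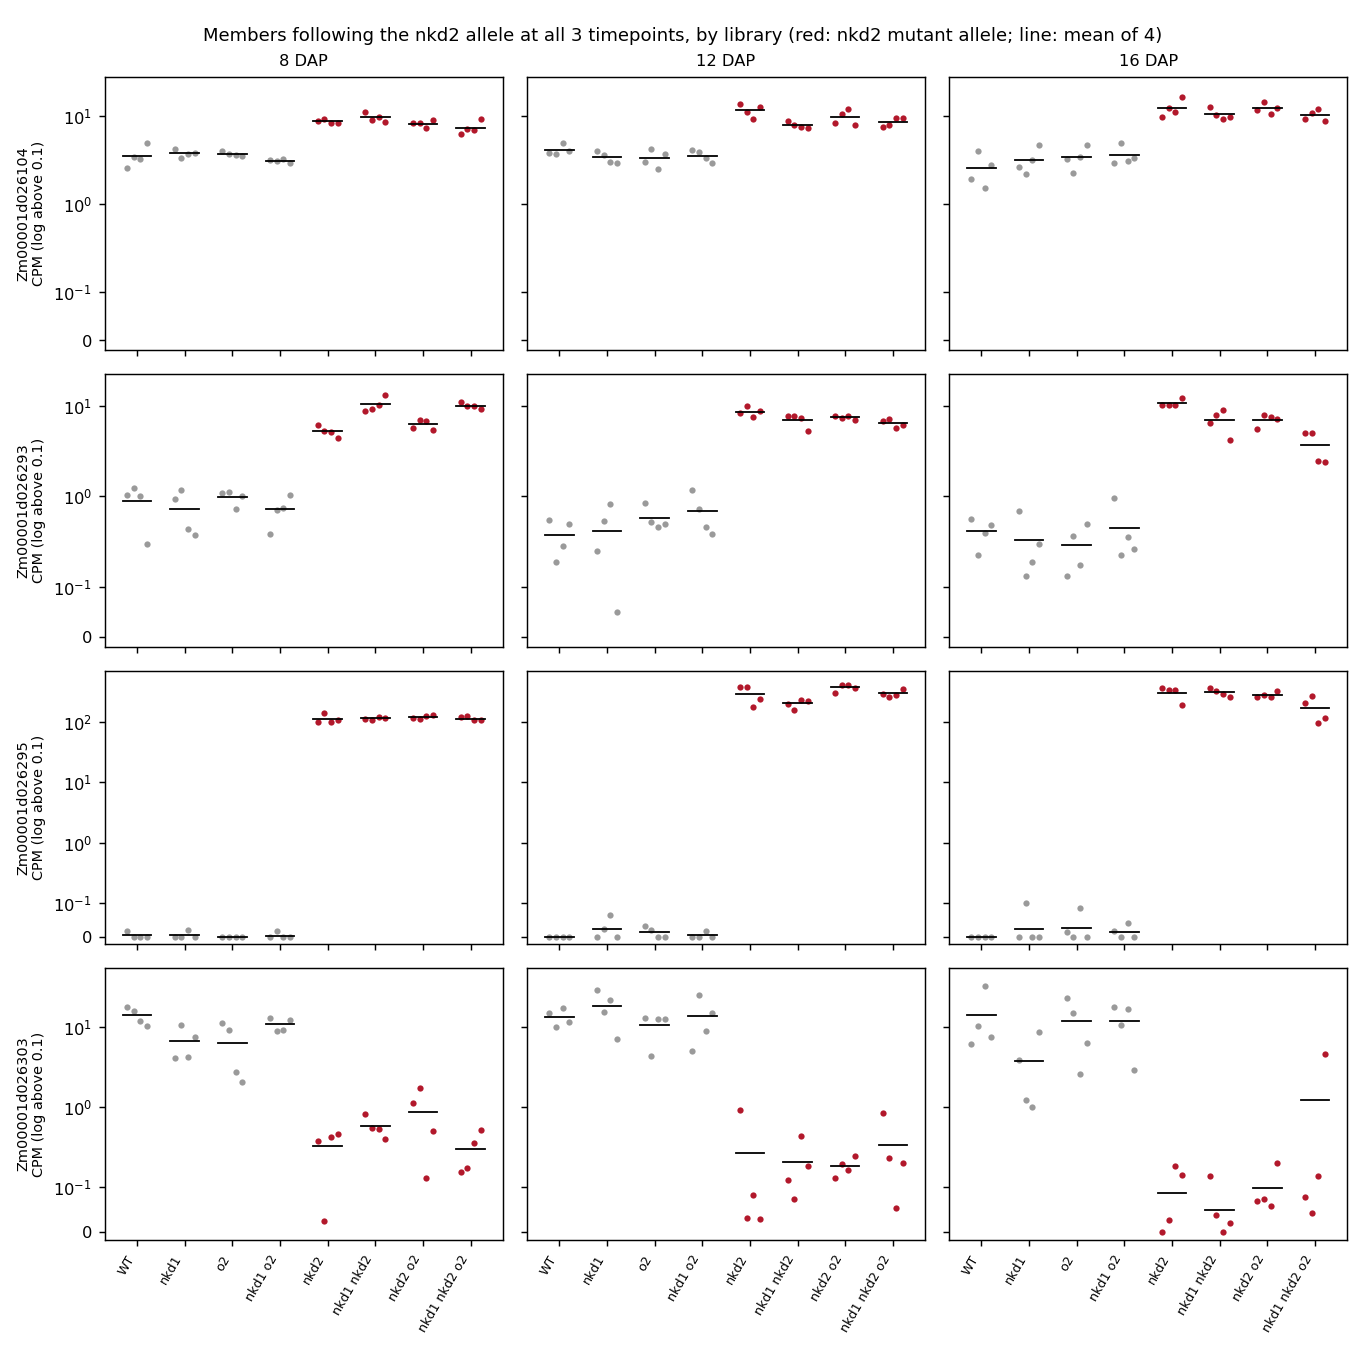
CPM (log scale above 0.1) in each library of the 4 members that followed the *nkd2* allele at all 3 timepoints, by genotype, with the mean of 4 libraries as a line. Red points, with the *nkd2* mutant allele, stand above the grey ones for 3 members and below them for Zm00001d026303, except its library at 4.59 CPM at 16 DAP.

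In the lower stretch, 7 of the 9 members past both limits lay below *nkd2* and were higher with nkd2-null at a timepoint where they followed. The largest of these differences in a well-expressed transcript was that of Zm00001d026097, 16 below *nkd2*. At 12 DAP its mutant libraries ranged from 20.1 to 47.6 CPM with a median of 34.5, and its wild-type ones from 1.03 to 6.27 CPM with a median of 2.1. At 16 DAP these were 25.4, 32.4, and 43.3 against 1.002, 3.38, and 14.9 CPM, again without overlap, and the mean log2FC was 4.02 ± 0.12 and 3.30 ± 0.11 (adjusted P = 1.7e-20 and 1.9e-19). At 8 DAP the alleles overlapped, and WT reached its highest levels then: it had 31.5, 18.6, 21.4, and 5.72 CPM against 28.7, 13.8, 22.9, and 25.9 CPM in *nkd2*, a log2FC of 0.24. The nkd2-null libraries had medians of 26.9, 34.5, and 32.4 CPM at the 3 timepoints and the wild-type ones 5.99, 2.1, and 3.38 CPM. The mean effect differed between timepoints (adjusted P = 7.9e-15).

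The genes Zm00001d026103, 10 below *nkd2* and numbered next to Zm00001d026104, and Zm00001d026089, 24 below, were chosen for naming after their values were seen. Zm00001d026103 had 17.6, 21.5, and 25.8 CPM as its lowest, median, and highest mutant levels at 8 DAP against 7.44, 11.4, and 14.6 CPM, and 19.7, 28.4, and 43.1 against 7.13, 8.98, and 11.8 CPM at 16 DAP. The alleles were apart at each timepoint, and the mean log2FC was 0.97 ± 0.07, 1.42 ± 0.08, and 1.69 ± 0.07, which placed it past both limits at 12 and 16 DAP. The median of Zm00001d026089 was 153, 75.5, and 41.9 CPM in mutant and 76.4, 36.1, and 12.5 CPM in wild-type libraries at 8, 12, and 16 DAP, and its mean log2FC was 0.98 ± 0.04, 1.02 ± 0.08, and 1.61 ± 0.07. The alleles overlapped for it at 12 DAP only.

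The rest of that stretch included members of few counts. Zm00001d026080, 33 below *nkd2*, had 1.13 to 5.36 CPM in mutant and 0 to 0.226 CPM in wild-type libraries at 8 DAP, apart from each other, with a mean log2FC of 5.58 ± 0.30 (adjusted P = 3.5e-14). It reached the count limit in 24 libraries, all mutant. Zm00001d026078, 35 below, encodes an F-box protein named PP2-A13, F-box proteins being the subunits by which SCF ubiquitin ligases bind their targets. At 16 DAP it had 0.0780, 0.761, and 1.41 CPM as lowest, median, and highest in mutant and 0, 0.0524, and 0.481 CPM in wild-type libraries, which overlapped. Its mean log2FC was 2.93 ± 0.37 (adjusted P = 6.2e-07), and it reached the count limit in 4 libraries, all mutant. Zm00001d026137, 24 above *nkd2*, followed at 16 DAP, with 0.0918, 0.304, and 1.17 CPM against 0, 0, and 0.160 CPM, where 14 of 16 wild-type libraries had no read. It was at least 2.13-fold higher in *nkd1 nkd2* than in *nkd1* and at least 6.57-fold higher in *nkd1 nkd2 o2* than in *nkd1 o2*, whereas at 8 DAP its levels overlapped widely, at 0.0489 to 4.20 CPM in mutant and 0.0173 to 9.50 CPM in wild-type libraries (adjusted P = 0.36). The calls of Zm00001d026078 and Zm00001d026137 at 16 DAP were the least stable of all, held in 3 of 10 other settings of the analysis each.

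The upper stretch held 7 of the 8 members that were lower. Zm00001d026290, 177 above *nkd2*, had 0.564, 1.17, and 1.98 CPM as its lowest, median, and highest mutant levels at 8 DAP against 3.96, 5.14, and 6.44 CPM in wild-type libraries. At 12 DAP these were 0.722, 1.26, and 3.27 against 3.59, 5.38, and 7.10 CPM. The alleles did not overlap at either timepoint, and the mean log2FC was -2.10 ± 0.11 and -2.09 ± 0.13 (adjusted P = 6.2e-14 and 3.3e-13). Zm00001d026297, 184 above, followed at 8 DAP only, at 0.154, 0.892, and 2.39 CPM against 2.60, 5.19, and 16.5 CPM, without overlap and with a mean log2FC of -2.60 ± 0.27 (adjusted P = 6.3e-08). At 16 DAP its medians were 0.166 and 0.414 CPM, and the mean log2FC of -1.34 ± 0.59 did not pass the test (adjusted P = 0.083).

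The lower members Zm00001d026261, Zm00001d026278, Zm00001d026296, and Zm00001d026301 had mean log2FC values between -1.65 and -0.80 over the 3 timepoints, and all but Zm00001d026278 were named after their values were seen. Zm00001d026278, 165 above *nkd2*, had 34.9 to 52.1 CPM in mutant and 84.6 to 120 CPM in wild-type libraries at 8 DAP, and it was apart at all 3 timepoints with a mean log2FC of -1.27 ± 0.04, -1.34 ± 0.05, and -1.04 ± 0.06. Zm00001d026261 had 3.56 to 6.55 CPM against 12.5 to 18.8 CPM at 12 DAP, with a mean log2FC of -1.65 ± 0.07 (adjusted P = 1.2e-17). Zm00001d026296 and Zm00001d026301 did not overlap between the alleles at any timepoint either. Zm00001d026312, 199 above *nkd2* and also named after its values were seen, had 181 to 281 CPM in mutant and 91.3 to 142 CPM in wild-type libraries at 8 DAP, with a mean log2FC of 0.95 ± 0.03, 0.96 ± 0.04, and 1.04 ± 0.04 at 8, 12, and 16 DAP and no overlap at any of them. Zm00001d026287, 174 above, was higher without overlap at each timepoint as well, with a mean log2FC of 1.10 ± 0.05, 1.46 ± 0.06, and 1.74 ± 0.07.

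**Figure D4:**
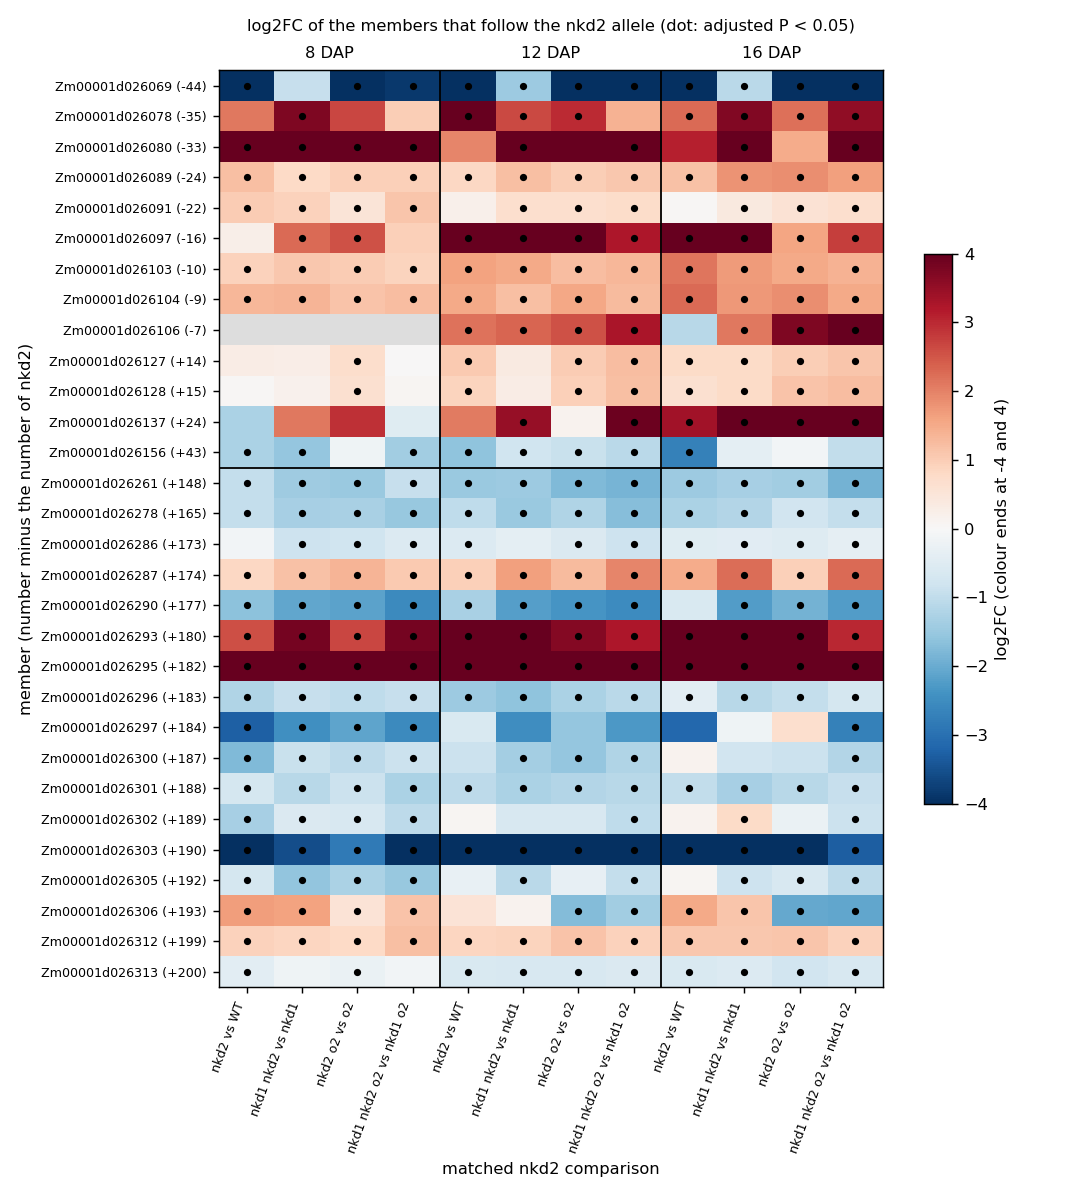
log2FC (color) in the 4 matched comparisons at 8, 12, and 16 DAP for the 30 members that followed the *nkd2* allele at any size. They are ordered by gene number, with a dot where the adjusted P-value was below 0.05. Of the 13 members in 1 block, around *nkd2*, all except Zm00001d026069 and Zm00001d026156 are red where they follow. The other block, of 17, holds both colors, and 7 of its 9 members past both limits are blue where they follow.

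Following the allele did not mean an equal difference in each background. The test of unequal effects was passed by 2 of the 7 members that followed at 8 DAP, 5 of 13 at 12 DAP, and 4 of 11 at 16 DAP. Over all members it was passed by 97 at 8 DAP (52.4%), 77 at 12 DAP (41.4%), and 107 at 16 DAP (57.8%), against 45.8%, 28.7%, and 44.7% of all genes tested, so that unequal effects were common in these libraries generally.

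Zm00001d026069, 44 below *nkd2*, was such a case in the lower stretch. It followed at 12 and 16 DAP, lower with the mutant allele, and was close to 0 in 3 of the 4 mutant genotypes but not in *nkd1 nkd2*. At 16 DAP it had no read in *nkd2* against 4.00, 4.11, 4.72, and 4.08 CPM in WT, at least 49.96-fold lower. In *nkd1 nkd2* it had 2.17, 2.94, 2.44, and 0.655 CPM against 3.44, 4.55, 5.42, and 3.90 CPM in *nkd1*, lower in every library but by a log2FC of only -1.08. In *nkd2 o2* it was at 0.0384 CPM or less and in *nkd1 nkd2 o2* at 0.0304 CPM or less. At 8 DAP the same genotypes stood apart, with 3.39, 4.06, 2.71, and 2.32 CPM in *nkd1 nkd2* and at most 0.257 CPM in any other mutant library. The effects were unequal at each timepoint (adjusted P = 2.2e-05, 6.3e-05, and 5.5e-09), and at 8 DAP that in *nkd1* background differed from the mean of the other 3 by 4.58 ± 0.63 (adjusted P = 0.00011). One wild-type-allele library, *nkd1 o2* number 1 at 8 DAP, held only 9 counts of the gene (0.156 CPM), while the other 3 of that group had 2.99 to 5.02 CPM, and without it the mean log2FC of Zm00001d026069 at 8 DAP was -4.45 in place of -4.35.

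Zm00001d026080 at 12 DAP had 1.18, 1.16, 0.836, and 1.10 CPM in *nkd1 nkd2* and 1.12, 0.826, 1.78, and 1.14 CPM in *nkd1 nkd2 o2*, but at most 0.249 CPM in *nkd2* and 0.181 CPM in *nkd2 o2*. The same held at 16 DAP, with means of 0.589 ± 0.0749 (SD, n = 4) and 0.554 ± 0.341 CPM against 0.0212 ± 0.0151 and 0.00547 ± 0.0109 CPM. At both timepoints every library of *nkd1 nkd2* and *nkd1 nkd2 o2* lay above every library of *nkd2* and *nkd2 o2*. The test of unequal effects was not passed (adjusted P = 0.19 and 0.96). It compares ratios to wild-type-allele groups, whose libraries held at most 4 counts at 12 DAP and 2 at 16 DAP. Among these few counts it cannot decide whether the *nkd2* effect differed between backgrounds.

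Zm00001d026106, 7 below *nkd2*, was near 0 at 8 DAP, where no library exceeded 0.163 CPM, and followed at 12 DAP with a mean log2FC of 2.58 ± 0.27 (adjusted P = 2.4e-08), its mutant libraries at 0.249 to 6.01 CPM overlapping the wild-type ones at 0.0275 to 0.716 CPM. At 16 DAP it was high in 3 of the 4 mutant genotypes: *nkd1 nkd2 o2* had 6.54, 9.22, 10.1, and 7.68 CPM, *nkd2 o2* had 6.22, 7.495, 5.77, and 4.90 CPM, and *nkd1 nkd2* had 3.58, 2.70, 2.20, and 2.504 CPM. *nkd2* had 0.357, 0.260, 0.459, and 0.169 CPM, within the range of 0.0416 to 1.63 CPM of the wild-type-allele libraries. The log2FC was -1.11 in WT background, 2.11 in *nkd1*, 3.72 in *o2*, and 4.87 in *nkd1 o2*, and the effects were unequal (adjusted P = 1.8e-05). It reached the count limit in 23 mutant and 1 wild-type libraries.

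In the upper stretch, Zm00001d026306, 193 above *nkd2*, followed at 8 DAP at any size and then differed in sign with the *o2* allele. At 16 DAP, *o2* had 14.9, 17.5, 28.8, and 10.2 CPM and *nkd1 o2* 21.9, 20.7, 28.2, and 31.0 CPM, above *nkd2 o2* at 4.29 ± 0.75 (SD, n = 4) and *nkd1 nkd2 o2* at 6.03 ± 1.36 CPM. WT and *nkd1* stood lower, at 2.11 ± 1.48 and 2.29 ± 0.57 CPM, and below *nkd2* and *nkd1 nkd2* at 6.05 ± 0.58 and 4.89 ± 1.39 CPM. The means of the 4 mutant genotypes thus lay between 4.29 and 6.05 CPM, and those of the wild-type ones between 2.11 and 25.5 CPM. The log2FC was 1.51 in WT, 1.10 in *nkd1*, -2.06 in *o2*, and -2.08 in *nkd1 o2* background (adjusted P for unequal effects = 7.1e-08), and the adjusted P-value was 2.9e-05 at 12 DAP and 0.00096 at 8 DAP.

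Other unequal differences in the upper stretch were of size and not of sign. Zm00001d026290 had the smallest difference in WT background, with a log2FC of -0.61 at 16 DAP against -2.23, -1.89, and -2.25 in *nkd1*, *o2*, and *nkd1 o2* (adjusted P = 0.0015), and it differed there from the mean of the other 3 by 1.51 ± 0.30 (adjusted P = 0.00045). Zm00001d026287 had a log2FC of 1.49 in WT and 0.96 in *o2* background against 2.24 and 2.28 in *nkd1* and *nkd1 o2* at 16 DAP (adjusted P = 9.6e-06). Zm00001d026278 had a log2FC of -0.96 in WT background at 8 DAP against -1.32, -1.28, and -1.53 (adjusted P = 0.0022). In the lower stretch Zm00001d026097 at 16 DAP had 4.13 and 4.74 in WT and *nkd1* background against 1.56 and 2.76 in *o2* and *nkd1 o2* (adjusted P = 1.3e-08), where *o2* itself had 14.9, 7.95, 9.89, and 4.56 CPM against 1.82 ± 0.32 CPM (SD, n = 4) in WT.

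**Figure D5:**
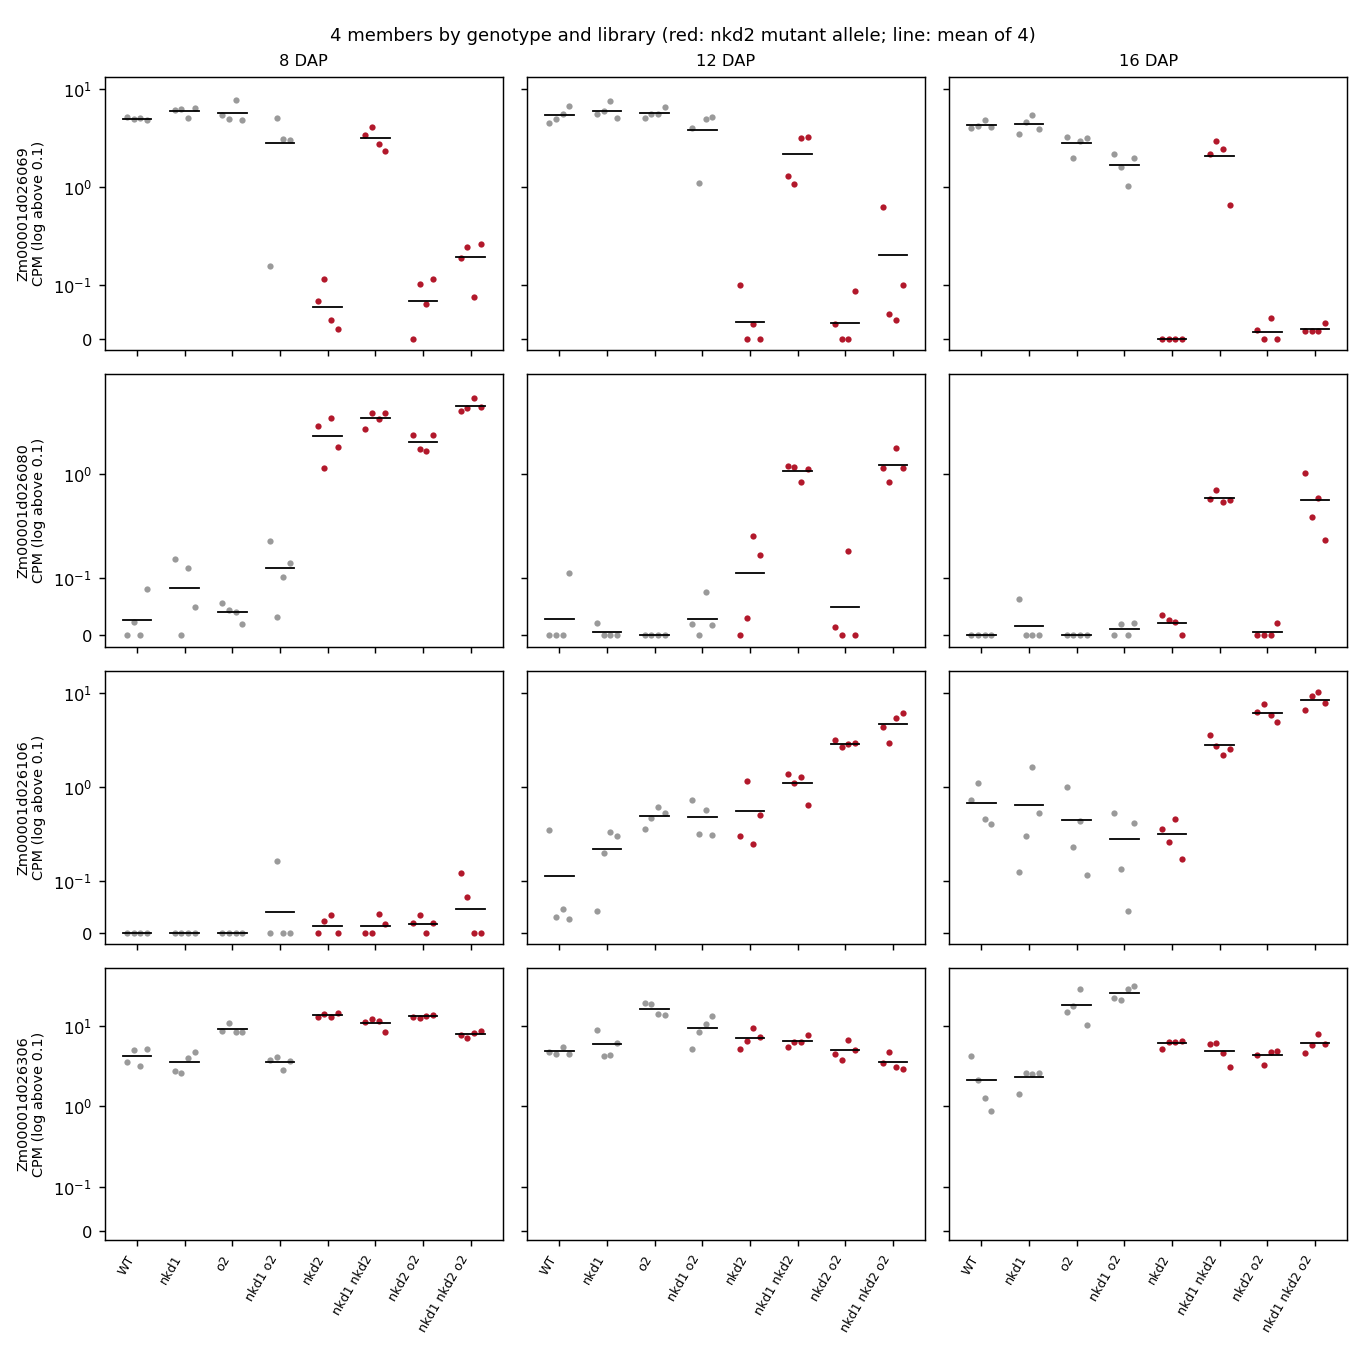
CPM (log scale above 0.1) in each library of 4 members by genotype at 8, 12, and 16 DAP, with the mean of 4 libraries as a line and the *nkd2* mutant allele in red. Zm00001d026069 stays at 0.655 CPM or more in *nkd1 nkd2*, Zm00001d026080 is up in all mutant genotypes at 8 DAP, Zm00001d026106 is low in *nkd2* at 16 DAP, and Zm00001d026306 is high in *o2* and *nkd1 o2* at 16 DAP.

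Members that followed and members that did not were interspersed close to *nkd2*. Zm00001d026103 and Zm00001d026104, 10 and 9 below it, followed at 2 and 3 timepoints. Of the 3 tested members nearest in number below *nkd2*, Zm00001d026106, Zm00001d026109, and Zm00001d026111, and the 3 above, Zm00001d026119, Zm00001d026121, and Zm00001d026122, all but Zm00001d026106 failed to follow at every timepoint. Zm00001d026111, 2 below *nkd2*, had a mean log2FC of 0.03 ± 0.06, -0.48 ± 0.08, and -0.41 ± 0.10. Zm00001d026122, 9 above, had 0.11 ± 0.05, 0.30 ± 0.05, and 0.40 ± 0.07, past the test at 12 and 16 DAP (adjusted P = 8.7e-05 and 2.4e-05) but with overlapping libraries. Zm00001d026119 had between -0.10 and 0.17.

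Other members carry names in the study's own material, and none of them followed. Zm00001d026017, the MYB-related gene MYBR111, whose Arabidopsis relative REVEILLE 1 acts in the circadian clock, was highest in *nkd2* at 16 DAP, with 10.2, 10.2, 8.24, and 9.71 CPM against 0.624, 0.886, 0.230, and 0.801 CPM in WT. In *nkd1 nkd2* it had 2.22, 3.86, 2.22, and 4.04 CPM, in *nkd2 o2* 0.171, 0.199, 0.327, and 0.788 CPM, and in *nkd1 nkd2 o2* at most 0.319 CPM. Zm00001d026135, 22 above *nkd2* and encoding a mechanosensitive ion channel protein, a class of channels that open under membrane tension, had a mean log2FC of 3.08 ± 0.46 at 12 DAP (adjusted P = 7.4e-06), with a log2FC of 3.08, 2.96, and 4.45 in WT, *nkd1*, and *o2* background and a value of 1.82 that did not pass in *nkd1 o2* (adjusted P = 0.15). Its levels were 0.123 to 2.16 CPM in mutant and 0 to 0.309 CPM in wild-type libraries. Zm00001d026029 was at 1.13 CPM or less in every library at 16 DAP.

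The *nkd1* and *o2* alleles in the same libraries served as a comparison. The mean *nkd2* allele effect passed both limits for 25, 27, and 36 members at 8, 12, and 16 DAP (13.5%, 14.5%, and 19.5%), against 2.03%, 4.93%, and 5.77% of all genes tested. The mean *nkd1* allele effect passed them for 7, 13, and 24 members (3.78%, 6.99%, and 13.0%), against 3.38%, 8.27%, and 9.37% of all genes. For *o2* the members were 13, 22, and 35 (7.03%, 11.8%, and 18.9%), against 6.54%, 9.02%, and 13.0%. Shares for these 2 alleles lay near those of the genome at 8 and 12 DAP and somewhat above them at 16 DAP. Of the members following *nkd2*, Zm00001d026080 at 8 DAP, Zm00001d026069 at 12 DAP, and Zm00001d026069, Zm00001d026078, and Zm00001d026137 at 16 DAP were also called for the mean *nkd1* effect, and Zm00001d026106 at 12 DAP and Zm00001d026078 and Zm00001d026097 at 16 DAP for that of *o2*.

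The *nkd2* allele effect differed between timepoints for 72 of 189 members (38.1%), against 25.1% of all genes tested, and for 11 of the 18 that followed. The same count was made in other windows. The 400 numbers below and the 400 above the members, and 200 numbers on each side of *o2*, held 0 genes past both limits in all 4 comparisons at each timepoint. The window of 200 numbers on each side of *nkd1* held 1 such gene, lower at 8 and 12 DAP. It was 1 of 180 tested at 8 DAP (0.556%, against 0.0864% of all genes) and 1 of 179 at 12 DAP (0.559%, against 0.131%). At an adjusted P-value below 0.05 without the limit on log2FC, the lower flank gave 1 gene at 12 DAP (0.535%, against 0.604% of all genes). The upper flank gave 1 at 8 DAP (0.498%, against 0.181%) and 1 at 16 DAP (0.5%, against 0.223%), and the *o2* window 0 at each timepoint. The *nkd1* window gave 2 of 180 genes at 8 DAP (1.11%, against 0.181% of all genes tested), 4 of 179 at 12 DAP (2.23%, against 0.604%), and 0 at 16 DAP (against 0.223%). Whether a member differed through loss of NKD2 or through an allele of its own carried along with nkd2-null cannot be told apart in this design.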

How the data were processed

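Libraries were made with a TruSeq RNA kit and sequenced as paired reads. Reads were mapped by the authors with HISAT2 2.1.0 on the B73 RefGen_v4 assembly. They used SAMtools 1.9, StringTie 1.3.6, and HTSeq 0.11.1, and deposited raw counts per gene, 1 table for each of the 96 libraries. The counting mode, strand setting, and annotation release are not given in the sources used here, and whether members share reads with near-identical or overlapping genes was not assessed. The 5 tally lines that name no gene held 13.4% to 29.0% of each table and were left out.

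The counts of each timepoint (32 libraries) were fitted in edgeR 4.0.16 (R 4.3.3) by the quasi-likelihood test on group means of the 8 genotypes, with TMM, filterByExpr, and Benjamini-Hochberg adjustment over all genes tested. CPM were computed over the reads on genes, scaled by TMM. SE was derived from the test, as the absolute log2FC divided by the square root of its quasi-likelihood F statistic. Besides the 4 matched comparisons, the fit gave their mean, a test on 3 degrees of freedom that they are equal, and the mean *nkd1* and *o2* allele effects. A fit of all 96 libraries tested the mean *nkd2* effect between timepoints. A fold against a group without reads was set against a floor of 3 counts per library and is a lower bound. The genes named were *nkd2*, members following at all 3 timepoints, the 8 of largest effect following at 1 or 2, up to 6 of unequal effects past both limits in 3 of 4 comparisons, the 3 nearest on each side, members named by the study, and those at the count limit. Others are said to have been chosen after their values were seen. The members and lists were chosen with earlier results of these data known.

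Alternatives were DESeq2 1.42.0, its size factors in edgeR, no low-count filter, all 96 libraries in 1 fit, each matched pair alone, no limit on log2FC, a replicate block, and each replicate number left out. The fits were tested on simulated data. Library depth leaves little counting error except for members of few reads, for which the spread between ears and single reads both count.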

Additional observations from a re-analysis of the deposited data

Results flagged for a closer look

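Single libraries stood apart from the other 3 of their genotype and timepoint in 15 of the 218 groups examined (6.88%), where chance gives about 1 in 20. The measure was the gap to the nearest library divided by the range of the 4. For Zm00001d026303 it was 0.979 in *nkd1 nkd2 o2* at 16 DAP (library 4, high), 0.938 in *nkd2* at 12 DAP (library 1), 0.940 in *o2* at 12 DAP (library 2), and 0.846 in WT at 16 DAP (library 3). For Zm00001d026069 it was 0.889 in *nkd1 nkd2 o2* at 12 DAP (library 1) and 0.847 in WT at 16 DAP (library 3). For Zm00001d026293 it was 0.838 in *o2* (library 1) and 0.837 in *nkd1 nkd2* (library 4) at 12 DAP and 0.962 in *nkd2* at 16 DAP (library 4). Library 4 of *nkd2* at 16 DAP also stood apart for Zm00001d026089, at 0.855, and Zm00001d026103, at 0.874. The others were Zm00001d026089 in *nkd1 nkd2* at 16 DAP (library 4, 0.844), Zm00001d026097 in *nkd1 nkd2 o2* at 16 DAP (library 2, 0.836), Zm00001d026106 in WT at 12 DAP (library 1, 0.939), and Zm00001d026295 in *nkd2* at 8 DAP (library 2, 0.844).

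The 4 matched *nkd2* effects differed from each other, by edgeR's test of unequal effects, in 22 cases among the members described. At all 3 timepoints the adjusted P-values were 2.2e-05, 6.3e-05, and 5.5e-09 for Zm00001d026069, 0.00096, 2.9e-05, and 7.1e-08 for Zm00001d026306, 0.011, 0.00022, and 9.6e-06 for Zm00001d026287, and 0.0022, 0.00085, and 0.046 for Zm00001d026278. They were 0.0079 and 1.3e-08 for Zm00001d026097 and 0.028 and 0.0015 for Zm00001d026290 at 12 and 16 DAP. At a single timepoint they were 0.02 for Zm00001d026293 and 0.026 for Zm00001d026303 at 8 DAP, 0.044 for Zm00001d026296 at 12 DAP, and 0.023 for Zm00001d026089, 0.009 for Zm00001d026103, and 1.8e-05 for Zm00001d026106 at 16 DAP. The mean *nkd2* effect differed between timepoints for 3 of the 4 members that followed at all of them, with adjusted P-values of 0.0022 for Zm00001d026104, 0.014 for Zm00001d026293, and 0.047 for Zm00001d026303.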

How the results depend on the processing

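No call changed direction under any alternative run. DESeq2, and DESeq2 size factors in edgeR, called the same 31 gene and timepoint combinations as following the allele. The fit of all 96 libraries kept 27 of the 31, no low-count filter 29, and each matched pair fitted alone 24, with 7 members following at 16 DAP in place of 11. Without the limit on log2FC, 20, 18, and 20 members followed at 8, 12, and 16 DAP and 12 at all 3 timepoints. The mean effect was then called for 69, 90, and 94 members, against 16.1%, 32.6%, and 33.3% of all genes tested. That alternative does not apply to the test of unequal effects, and matched pairs alone were run for following only. With each replicate number left out in turn, 7 to 8, 10 to 12, and 7 to 9 members followed at 8, 12, and 16 DAP, 3 to 4 at all 3, and the mean effect was called for 23 to 27, 23 to 29, and 30 to 36. Unequal effects were called for 64 to 85, 42 to 58, and 73 to 109 members. At 16 DAP the count was 7 without replicate 1. Zm00001d026303 was lost at 16 DAP without replicate 1 or 2 and with each matched pair fitted alone, and kept in 7 of 10 settings. Zm00001d026078 and Zm00001d026137 at 16 DAP kept their calls in 3 of 10 settings, Zm00001d026069 at 12 and 16 DAP in 5, and Zm00001d026106 at 12 DAP in 6. Chosen after seeing the data, a fit without library 4 of *nkd1 nkd2 o2* at 16 DAP gave 12 members, including the 11, and one without library 1 of *nkd1 o2* at 8 DAP gave the same 7. Over the single-gene values the outcome, called or not called, was the same in 715 cases. A call was lost in 10 and gained in 7. The cause of these changes was not tested. Members of few reads are limited by counting, and differences under a few reads per library were not detectable at this depth.

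With a replicate block, 7, 13, and 9 members followed at 8, 12, and 16 DAP and 4 at all 3, the mean effect was called for 25, 26, and 35, and unequal effects for 94, 75, and 108. The replicate numbers did not pair the libraries: deviations of same-numbered libraries from their group means had a mean correlation of -0.0054, 0.00088, and -0.0020 at the 3 timepoints, and 8, 7, and 7 of 32 libraries were closest to their own number.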

Other observations

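Zm00001d026127 and Zm00001d026128, 14 and 15 numbers above *nkd2* and numbered next to each other, were lower with the *o2* mutant allele and higher with nkd2-null. Both were named after their values were seen. At 12 DAP Zm00001d026127 had 133 ± 20.5 CPM (SD, n = 4) in WT, 272 ± 14.3 in *nkd2*, 28.0 ± 3.27 in *o2*, and 56.3 ± 4.57 in *nkd2 o2*. Zm00001d026128 had 53.3 ± 7.85, 98.1 ± 5.64, 11.1 ± 1.503, and 21.6 ± 2.12 CPM in the same genotypes. The mean *o2* log2FC was -2.44 ± 0.09 and -2.32 ± 0.07 at 12 DAP (adjusted P = 3.5e-19 and 8.7e-21, edgeR). The mean *nkd2* log2FC was 0.91 ± 0.09 and 0.83 ± 0.07, and both members followed the *nkd2* allele at any size at 16 DAP.

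Zm00001d026109, 4 numbers below *nkd2*, varied more between ears of a genotype than between alleles at 8 DAP. *nkd2* had 116, 1.47, 133, and 204 CPM, *nkd2 o2* had 194, 344, 0.750, and 150 CPM, *nkd1 o2* had 1.49, 161, 81.2, and 62.9 CPM, and WT had 879, 537, 629, and 78.8 CPM. At 16 DAP no library of either allele exceeded 2.63 CPM. Its mean *nkd2* log2FC at 8 DAP was 0.28 ± 0.70 (adjusted P = 0.85).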
